A study of Rattus norvegicus with 24 samples.

Results

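The genes described here repair DNA whose bases carry a methyl group. A list of 8 rat genes was taken, Mgmt, Mpg, Apex1, Xrcc1, Parp1, Polb, Msh6 and Pms2, and their rows were found by gene symbol in the expression table of the study. A row was found for 7 of the 8 genes among the 17420 rows, and all 7 were among the 12654 genes tested. Msh6, which takes part in recognising mismatches, was not analysed here.

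Expression was measured by RNA sequencing in the hippocampus and neocortex of Sprague-Dawley rat fetuses on embryonic day 18. Each of the 4 maternal treatment groups held 6 pups, and the numbers in the pup names were read as 2 litters of 3 pups. In the Saline group the dam received saline on gestational day 17. The MAM group came from dams given methylazoxymethanol acetate at 22 mg/kg by the intraperitoneal route on that day, and the Poly I:C group from dams given polyinosine:cytosine at 7.5 mg/kg. The Low Protein dams ate a diet of 6.1% protein from gestational day 11 to 18, and control rats ate an isocaloric diet with 20.3% protein. Whether the Low Protein dams were also injected, and what the dams of the MAM and Poly I:C groups ate, was not given in the sources used here. All dams were killed on gestational day 18, 18 hours after the injections. The dam was treated and the pup was measured, so littermates shared 1 exposure and the p-values below, taken over pups, cover mainly the spread between pups.

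MAM is a methylating agent that attaches methyl groups to DNA bases, among them guanine and adenine. Cells remove this damage by several routes. Direct reversal takes the methyl group off the base in a single step, which is the work of Mgmt for methyl groups on the oxygen of guanine. In base excision repair, the glycosylase Mpg cuts out methylated purines, the endonuclease Apex1 opens the strand at the empty site, Parp1 binds the break, Polb fills the gap and Xrcc1 holds the parts together. Mismatch repair, to which Msh6 and Pms2 belong, acts on the wrong pairs that form when methylated guanine is copied. Poly I:C mimics viral RNA, and neither it nor a low protein diet methylates DNA.

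Promoter sequences from RefSeq (build GRCr8, 250 bases before to 50 bases after the gene start) are shown for the 3 members with an unadjusted limma p under 0.05 in any comparison described below, so that the letters around their starts can be seen. They are written 5′ to 3′ along the gene. Capitals mark the GC box GGGCGG, the CCAAT box CCAAT and the E-box CACGTG, each searched on both strands, so that a box on the opposite strand appears as its reverse complement. None of the capital stretches overlaps another.
Mgmt (chr1:201140582-201140881, plus strand): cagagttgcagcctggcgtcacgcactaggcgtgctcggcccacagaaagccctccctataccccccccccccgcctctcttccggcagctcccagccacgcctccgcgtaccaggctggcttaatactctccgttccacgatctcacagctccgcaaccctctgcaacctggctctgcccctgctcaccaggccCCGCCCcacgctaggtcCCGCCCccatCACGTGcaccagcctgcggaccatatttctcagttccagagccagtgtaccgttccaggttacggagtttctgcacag
Mpg (chr10:15906875-15907174, minus strand): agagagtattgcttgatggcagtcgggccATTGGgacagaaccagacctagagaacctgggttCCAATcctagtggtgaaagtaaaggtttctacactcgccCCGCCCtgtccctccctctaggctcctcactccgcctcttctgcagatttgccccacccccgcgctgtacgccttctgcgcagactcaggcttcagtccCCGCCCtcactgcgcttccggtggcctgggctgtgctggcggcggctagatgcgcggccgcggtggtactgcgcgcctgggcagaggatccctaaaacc
Parp1 (chr13:94839234-94839533, plus strand): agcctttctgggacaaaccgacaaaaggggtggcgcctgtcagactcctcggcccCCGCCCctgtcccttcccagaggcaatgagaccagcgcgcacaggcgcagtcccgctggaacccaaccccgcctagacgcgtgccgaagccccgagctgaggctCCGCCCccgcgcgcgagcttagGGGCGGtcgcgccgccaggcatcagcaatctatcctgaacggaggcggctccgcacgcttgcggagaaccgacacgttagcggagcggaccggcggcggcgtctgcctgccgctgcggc
Mgmt and Mpg each held 19 CpG dinucleotides and 2 GC boxes in these 300 bases. Mgmt also held 1 E-box and Mpg 2 CCAAT boxes, and Parp1 held 37 CpG dinucleotides and 3 GC boxes. Over 27457 rat promoters of the same length the median was 7 CpG dinucleotides, 34.9% held a GC box, 37.7% a CCAAT box and 6.65% the E-box. A p53 decamer, found in 7.89% of all promoters, was not found in the window of any of the 7 listed genes that had a promoter entry, namely Mgmt, Mpg, Apex1, Xrcc1, Parp1, Msh6 and Pms2. Polb had no entry.

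The deposited values are TPM, and the gene length used for them was not given in the sources used here. The steps between low values followed the whole genomic span of a gene, introns included, and the span was taken as that length here. On this reading a long gene has a small value, so levels are compared below between groups of pups and never between genes. Estimated from the steps between low values, the depth was 25 to 64.9 M reads per pup, with a group median of 34 M for Saline, 44.4 M for Low Protein, 42.6 M for MAM and 30.9 M for Poly I:C. These estimates rest on 45.1% to 52.0% of the low values lying within 0.05 of a whole read, against 10% by chance, so they and every read number below are approximate. Of 11 cortex markers, 9 had a row, all 9 were above the offset in every pup, and their summed level was 210 to 420 TPM per pup.

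No member passed the adjusted threshold in any of the 5 comparisons made with limma (Benjamini-Hochberg adjusted p under 0.05 over 12654 genes), and few genes of the table did, namely 0.0158% for MAM, 0% for Poly I:C and 0% for Low Protein against Saline, 1.19% for MAM against Poly I:C and 0.0474% for MAM against Low Protein. At an unadjusted limma p under 0.05, 1 of 7 members differed between MAM and Saline, where 9.89% of all genes did. For Poly I:C against Saline and Low Protein against Saline the count was 0 of 7, with 9.37% and 7.21% of all genes. It was 3 of 7 for MAM against Poly I:C, where 18.6% of all genes differed, and 0 of 7 for MAM against Low Protein, where 8.75% did. The values of every pair of groups overlapped for each of the 7 members, whereas 0.901%, 0.45% and 0.68% of all genes did not overlap between MAM, Poly I:C or Low Protein and Saline, 3.37% between the MAM and the Poly I:C pups and 0.846% between the MAM and the Low Protein pups. In a test for any difference among the 4 groups, Mpg had an unadjusted p of 0.0269 (limma F test, adjusted p = 0.336), against 13.1% of all genes under 0.05 and 0.158% past the adjusted threshold, and the other 6 members had adjusted p-values of 0.436 to 0.907. MAM takes part in 3 of these comparisons and Saline in 3, so they share pups.

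**Figure D1:**
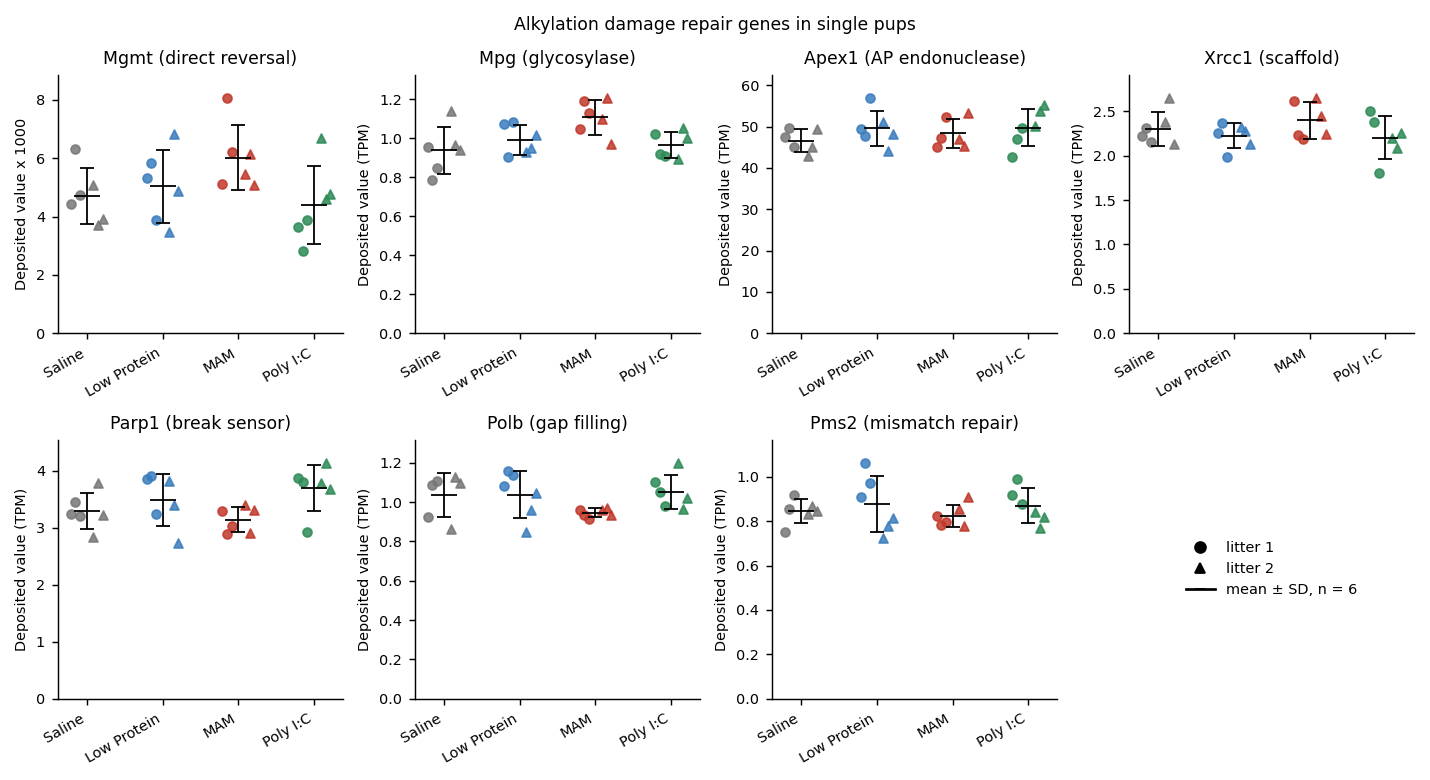
Deposited value (TPM, linear axis from 0; for Mgmt multiplied by 1000) of the 7 repair genes in each of the 24 pups, by maternal treatment. Circles are pups of litter 1, triangles pups of litter 2, and bars show the mean ± SD of 6 pups. The MAM pups lay high for Mgmt and Mpg and close together for Polb, and every group overlapped every other.

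Mgmt, the methyltransferase that reverses methylated guanine, had the largest difference of the members between MAM and Saline on the log2 scale, and the widest spread. Its values are given multiplied by 1000, and the gene spans 226650 bases. The MAM pups had 5.11, 8.06 and 6.22 in litter 1 and 5.47, 6.13 and 5.09 in litter 2. The Saline pups had 4.43, 6.33 and 4.72 in litter 1 and 5.09, 3.70 and 3.91 in litter 2. All 6 MAM pups were above the Saline median, and 1 of them was above every Saline pup. The group means ran from MAM at 6.01 ± 1.11 (SD, n = 6) through Low Protein at 5.04 ± 1.24 and Saline at 4.70 ± 0.949 to Poly I:C at 4.39 ± 1.32, and the neighbours in that order differed by less than their SDs. The difference between MAM and Saline was 0.36 on the log2 scale (1.28-fold, SE 0.205), with an unadjusted p of 0.0917 and an adjusted p of 0.525 in limma. By exact permutation, two-sided, the same difference gave p = 0.0476, without adjustment for the 35 exact tests made.

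Mgmt was also the member with the lowest counts. The estimated reads per pup were 20.8 to 96.4 with a median of 51.6, so counting alone would give an SD of 0.211 on the log2 scale, against an observed SD within groups of 0.336. Against Poly I:C the MAM pups were higher by 0.49 (1.40-fold, SE 0.205, limma unadjusted p = 0.0266, adjusted p = 0.196). The Poly I:C pups had 3.63, 2.82 and 3.87 in litter 1 and 6.68, 4.6 and 4.78 in litter 2, a litter mean of 3.44 against 5.35. With litter 1 of the Poly I:C group left out, MAM was higher by 0.17, and with its litter 2 left out, by 0.80. It was 0.39 without MAM litter 1, with an unadjusted limma p of 0.148. Low Protein and Poly I:C differed from Saline by 0.09 and −0.12, with adjusted limma p-values of 0.967 and 0.898.

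Mpg, the glycosylase that starts base excision repair of methylated purines, was the only member with an unadjusted limma p under 0.05 between MAM and Saline. The MAM pups had 1.05, 1.19 and 1.13 TPM in litter 1 and 1.10, 1.21 and 0.972 TPM in litter 2. The Saline pups had 0.954, 0.787 and 0.847 TPM in litter 1 and 1.14, 0.965 and 0.942 TPM in litter 2. All 6 MAM pups were above the Saline median, and 2 of them were above every Saline pup. The difference was 0.24 on the log2 scale (1.18-fold, SE 0.0775, 95% interval 0.08 to 0.40), with an unadjusted limma p of 0.00463 and an adjusted p of 0.481. The exact permutation p was 0.026.

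The Saline litters differed for Mpg, with means of 0.863 TPM in litter 1 and 1.01 TPM in litter 2, while the MAM litters were at 1.12 and 1.09 TPM. The difference between MAM and Saline was 0.13 without Saline litter 1 (limma unadjusted p = 0.158) and 0.36 without Saline litter 2. Leaving out single pups or litters in 32 ways kept the unadjusted limma p of Mpg under 0.05 in 31. The ways that left out Low Protein or Poly I:C pups could not move this difference and changed only the pooled spread. In Low Protein Mpg was at 0.993 ± 0.0769 TPM, and Poly I:C pups averaged 0.967 ± 0.0675 TPM (SD, n = 6), between Saline at 0.939 ± 0.120 and MAM at 1.11 ± 0.0884 TPM. The differences of Low Protein and Poly I:C from Saline were 0.09 and 0.05, with 95% intervals of −0.07 to 0.25 and −0.11 to 0.21. MAM was above Poly I:C by 0.19 (SE 0.0775, limma unadjusted p = 0.0199, adjusted p = 0.178), and 4 of 6 MAM pups were above every Poly I:C pup. The difference from Poly I:C was 0.17 without MAM litter 1, with an unadjusted limma p of 0.1. Of 7 microglia markers, 2 were higher in MAM than in Saline at an unadjusted limma p under 0.05, where 2.2% of all genes were. The marker sums were 10.6 to 13.8 TPM in MAM against 9.36 to 11.0 TPM in Saline, with none at the offset. The largest terms of these sums, C1qa and C1qb, had means of 4.96 and 3.33 TPM in MAM against 3.76 and 2.65 TPM in Saline. Csf1r was at 0.861 against 0.840 TPM and Cx3cr1 at 0.232 against 0.236 TPM. By log2 difference 6 of the 7 markers were above Saline, where 28.5% of all genes were. The part of the microglia markers in the Mpg difference was not tested. MAM exceeded Low Protein by 0.16 (limma unadjusted p = 0.0571, exact permutation p = 0.0433).

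**Figure D2:**
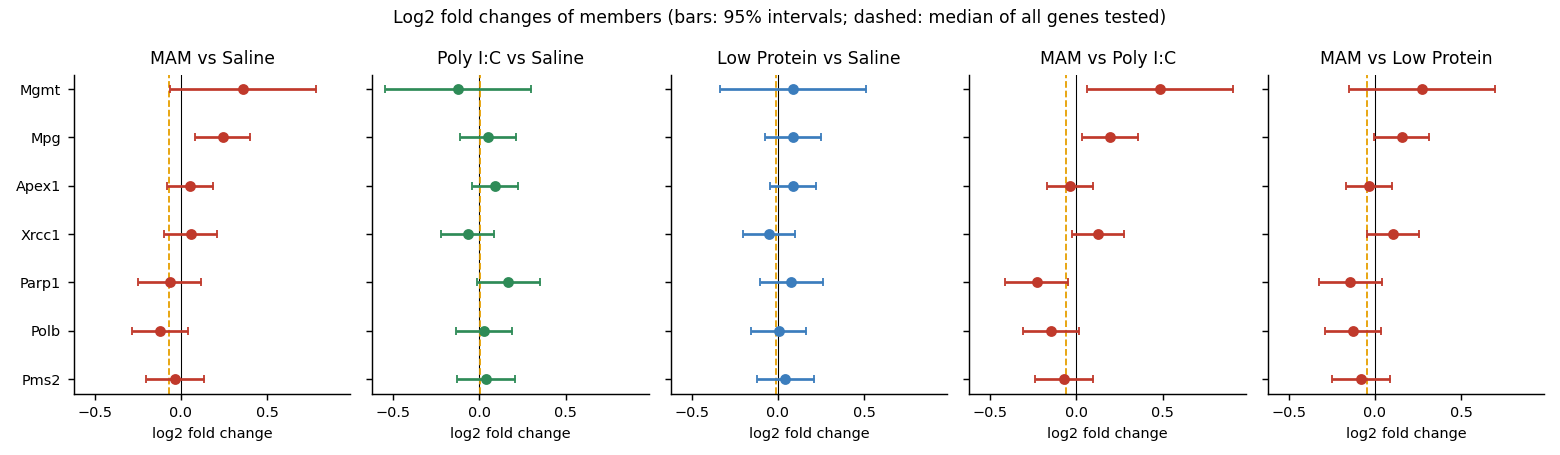
Log2 fold change (horizontal axis) of the 7 members in the 5 comparisons, as points with 95% intervals from the limma fit over 24 pups. The solid line is 0 and the dashed line is the median of all 12654 genes, which was −0.07 for MAM against Saline. Only the intervals of Mpg against Saline and of Mgmt, Mpg and Parp1 against Poly I:C exclude 0.

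Apex1, the endonuclease that opens the strand at the base-free site, had ranges that overlapped widely between the groups. Its lowest, median and highest values were 42.8, 46.2 and 49.7 TPM in Saline, 44.1, 48.8 and 56.9 TPM in Low Protein, 45.1, 47.1 and 53.2 TPM in MAM and 42.7, 49.98 and 55.1 TPM in Poly I:C. The differences from Saline were 0.05 for MAM, 0.09 for Poly I:C and 0.09 for Low Protein, with 95% intervals that together ran from −0.08 to 0.23. The 2 Poly I:C litters stood apart, at 46.5 and 53 TPM. The annotation names 2 pseudogenes of Apex1, and how the counting shared reads with them is not known.

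Parp1, the sensor that binds strand breaks and builds ADP-ribose chains, was highest in Poly I:C and lowest in MAM. Its lowest, median and highest values were 2.93, 3.80 and 4.13 TPM in Poly I:C, 2.73, 3.61 and 3.90 TPM in Low Protein, 2.83, 3.24 and 3.78 TPM in Saline and 2.90, 3.17 and 3.4 TPM in MAM. All 6 MAM pups were below the Poly I:C median, and 2 of them were below every Poly I:C pup. Parp1 differed by −0.23 between MAM and Poly I:C (0.852-fold, SE 0.0880, limma unadjusted p = 0.0147, adjusted p = 0.157, exact permutation p = 0.026). The difference was −0.20 without MAM litter 1 and −0.16 without Poly I:C litter 2, with unadjusted limma p-values of 0.0884 and 0.157. Against Saline, Poly I:C was at 0.17 (SE 0.0880, limma adjusted p = 0.567), Low Protein at 0.08 and MAM at −0.07.

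Markers of dividing cells and of thalamus, a neighbouring region outside the dissection, were also compared between MAM and Poly I:C. Of 15 markers of S phase and mitosis, 2 were lower in MAM than in Poly I:C at an unadjusted limma p under 0.05 and 0 were higher. Of all genes, 14.7% were lower and 3.91% higher at that p. The median difference of these markers was −0.12, against −0.06 for all genes. Their summed level was 50.2 to 61.5 TPM in the MAM pups and 45.4 to 69.9 TPM in the Poly I:C pups. None of 3 thalamus markers was higher in MAM, and 2 were lower at an unadjusted limma p under 0.05. Their sums were 0.736 to 1.29 TPM in MAM and 0.638 to 4.80 TPM in Poly I:C, and none was at the offset in any pup. The part of these markers in the Parp1 difference was not tested, and in bulk tissue fewer cells of a type cannot be told apart from less RNA per cell.

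Polb, the polymerase that fills the gap, had a narrow range in MAM. The MAM pups had 0.961, 0.935 and 0.912 TPM in litter 1 and 0.963, 0.973 and 0.936 TPM in litter 2, an SD of 0.0227 TPM against 0.0869 to 0.118 TPM in the other groups. All 6 were below the median of each other group, and 5 of 6 were below every Poly I:C pup. The lowest, median and highest values were 0.862, 1.09 and 1.13 TPM in Saline, 0.846, 1.06 and 1.16 TPM in Low Protein, and for Poly I:C 0.965, 1.04 and 1.20 TPM. Limma, which pools the spread of the 4 groups, gave −0.12 for MAM against Saline (SE 0.0780, unadjusted p = 0.131, adjusted p = 0.554) and −0.15 against Poly I:C (unadjusted p = 0.068, adjusted p = 0.31). The exact permutation p was 0.0736 against Saline and 0.00433 against Poly I:C, where the smallest that 6 against 6 pups allow is 0.00216. Whether the spread itself differed between groups was not tested.

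Xrcc1, the scaffold of single-strand break repair, had group means of 2.4 ± 0.204 TPM in MAM, 2.30 ± 0.191 in Saline, 2.22 ± 0.140 in Low Protein and, for Poly I:C, 2.20 ± 0.244 (SD, n = 6). The values ran from 2.18 to 2.65 TPM in MAM and from 2.13 to 2.64 TPM in Saline, so the ranges nearly coincided. The differences from Saline were 0.06 for MAM, −0.05 for Low Protein and −0.07 for Poly I:C, with limma adjusted p-values of 0.773, 0.931 and 0.82.

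Pms2, an endonuclease subunit of mismatch repair, had means of 0.824 ± 0.0497 TPM in MAM, 0.845 ± 0.0539 in Saline, 0.870 ± 0.0788 in Poly I:C and 0.877 ± 0.128 in Low Protein (SD, n = 6). Differences from Saline were −0.04 for MAM and 0.04 for both other groups, with adjusted limma p-values of 0.883 or more. The wider spread in Low Protein lay between litters, with values of 0.910, 1.06 and 0.974 TPM in litter 1 and 0.724, 0.777 and 0.817 TPM in litter 2. Polb was split the same way in those litters, with means of 1.13 and 0.951 TPM.

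**Figure D3:**
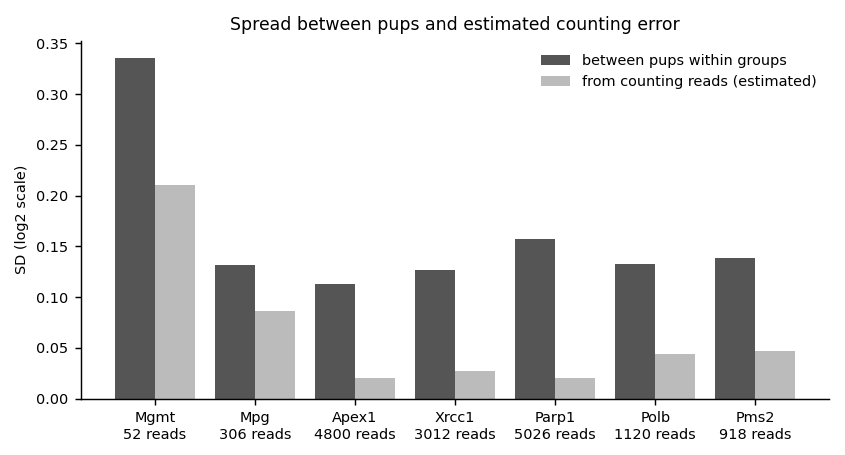
SD on the log2 scale for each member: between pups within groups (dark bars) and the part that counting reads alone would give (light bars), with the median of the estimated reads per pup under each gene. Counting alone would give an SD of 0.211 in Mgmt and 0.086 in Mpg, and at most 0.0469 in the other 5 genes.

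Apart from Mgmt and Mpg, the SD expected from counting was small beside the spread between pups. Median estimated reads per pup were 306 for Mpg, 918 for Pms2, 1120 for Polb, 3012 for Xrcc1, 4800 for Apex1 and 5026 for Parp1. The study's own limit for testing a gene, a mean above 1 in every group, is met by Apex1, Xrcc1 and Parp1 and not by Mgmt, Mpg, Polb or Pms2.

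As a set the members did not vary together over the 24 pups, although some pairs did. Among 21 pairs, Pearson's r of the log2 values ran from −0.56 for Apex1 with Xrcc1 to 0.66 for Polb with Pms2, with a median of −0.0072. With the group means taken out, r was −0.56 for Apex1 with Xrcc1, 0.64 for Polb with Pms2 and 0.59 for Xrcc1 with Parp1. The genes whose values followed each member most closely over the 24 pups were Tmem106a (r = 0.69) and Nr1h3 (0.68) for Mgmt, Atp5d (0.75) and Ndufs7 (0.72) for Mpg, Rnd2 (0.88) and Arl6ip6 (0.82) for Apex1, and Samd14 (0.88) and Plekhg5 (0.86) for Xrcc1. For Parp1 they were Sfpq (0.93) and Hnrnpm (0.93), for Polb Ttc21b (0.83) and Jak2 (0.82), and for Pms2 Abhd18 (0.81) and Hcfc2 (0.79). These r values are descriptions over pups that share groups, litters and sequencing depth, and were picked as the highest of all genes tested.

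The members were set among the other genes of their routes, 49 genes tested in 3 lists that hold the 7 members and 42 others. Between MAM and Saline 3 of 49 were higher and 2 lower at an unadjusted p under 0.05 (2.2% and 7.69% of all genes), with a median difference of 0.03 against −0.07 for all genes, and 28 of the 49 differences were above 0, where 28.5% of all genes were. For Poly I:C 6 were higher and 1 lower (3.98% and 5.4% of all genes), with a median of 0.05 against 0.0035, and 37 of 49 were above 0, where 51% of all genes were. For Low Protein 2 were higher and 0 lower (2.7% and 4.5% of all genes), with a median of 0.07 against −0.01, and 40 of 49 were above 0, where 45.2% of all genes were. None passed the adjusted threshold in these comparisons (limma). The members of a list are no replicates and rest on the same pups, so these counts are descriptions.

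**Figure D4:**
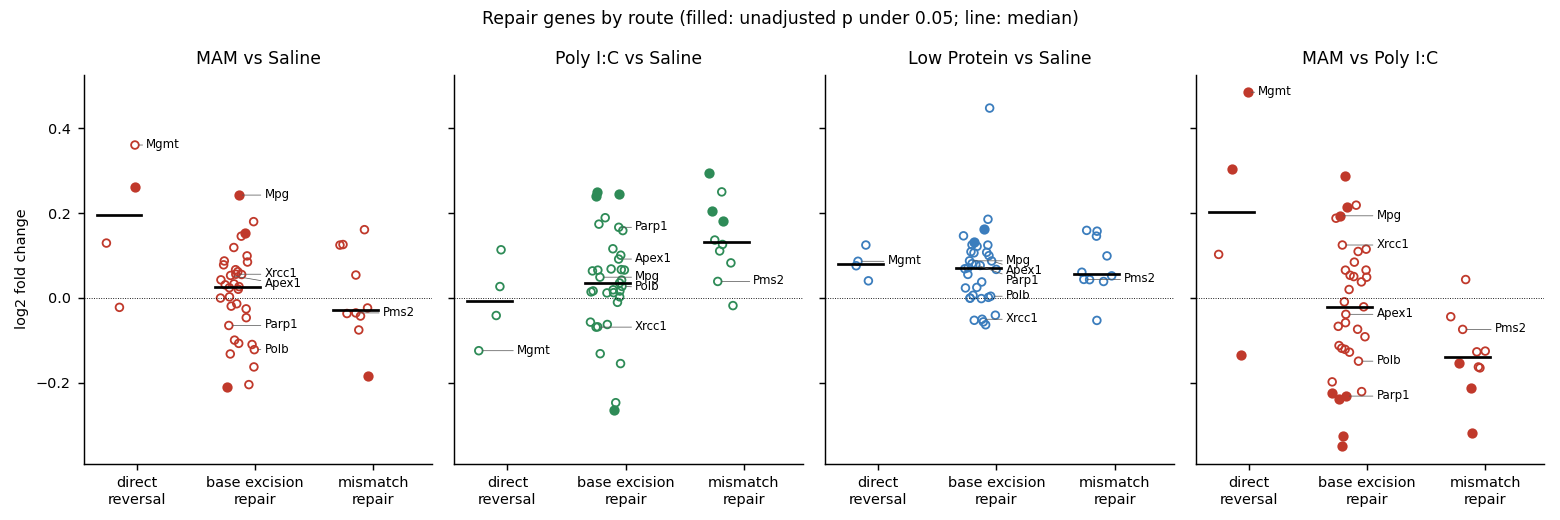
Log2 fold change (vertical axis) of 49 repair genes in direct reversal (4 genes), base excision repair (35) and mismatch repair (10) in 4 comparisons, with the members named. Filled points have an unadjusted limma p under 0.05 and lines are list medians. The mismatch repair median was 0.13 for Poly I:C against Saline and −0.14 for MAM against Poly I:C.

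The direct reversal list held Mgmt and the dioxygenases Alkbh1, Alkbh2 and Alkbh3, of which Alkbh2 and Alkbh3 oxidise methyl groups off DNA bases. Alkbh2 had lowest, median and highest values of 0.676, 0.756 and 0.852 TPM in MAM, 0.524, 0.650 and 0.711 TPM in Saline, 0.616, 0.658 and 0.699 TPM in Low Protein, and for Poly I:C 0.513, 0.650 and 0.679 TPM. The MAM and Saline pups overlapped between 0.676 and 0.711 TPM, and the lowest MAM pup was just under the highest Poly I:C pup. Alkbh2 differed by 0.26 between MAM and Saline (1.20-fold, SE 0.0804, limma unadjusted p = 0.0034, adjusted p = 0.479), by 0.30 between MAM and Poly I:C (unadjusted p = 0.000958, adjusted p = 0.0607) and by 0.22 between MAM and Low Protein (unadjusted p = 0.0111, adjusted p = 0.427). The difference from Saline was 0.17 without MAM litter 1 (limma unadjusted p = 0.0983) and 0.19 without Saline litter 1 (0.0536). Alkbh3 was at 0.13 and Alkbh1 at −0.02 for MAM against Saline.

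In base excision repair the genes with the lowest limma p for MAM against Saline were Mpg, Pold2 and Parg. Pold2, an accessory subunit of DNA polymerase delta, was at 0.15 (limma unadjusted p = 0.0087) and Parg, which removes ADP-ribose chains, at −0.21 (limma unadjusted p = 0.0278). Parg ran from 0.195 to 0.268 TPM in MAM and from 0.247 to 0.302 TPM in Saline. For Poly I:C they were Pcna, the sliding clamp of replication, at 0.24, the uracil glycosylase Ung at 0.25 and Apex2 at 0.25, with limma adjusted p-values of 0.437 to 0.455. For Low Protein they were Parp2 at 0.16, Pold2 at 0.13 and Aplf at 0.45, the last with an unadjusted limma p of 0.105.

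In mismatch repair the genes with the lowest p for MAM against Saline were Mlh3 at −0.18, and Rpa2 at 0.16 and Rpa3 at 0.13, subunits of the protein that coats single-stranded DNA (limma adjusted p 0.501 to 0.595). For Poly I:C they were Pms1 at 0.30, Rpa2 at 0.21 and Rpa1 at 0.18, each with an unadjusted limma p under 0.05, and for Low Protein Rpa1 at 0.16, Msh3 at 0.15 and Pms1 at 0.16, none under it. Of 15 markers of S phase and mitosis, all 15 were above Saline in Poly I:C, where 51% of all genes were, with a median of 0.19. At an unadjusted limma p under 0.05, 3 of them were higher, where 3.98% of all genes were. The marker sums were 45.4 to 69.9 TPM in Poly I:C against 47.6 to 55.7 TPM in Saline. For MAM 12 of the 15 were above Saline, where 28.5% of all genes were, with a median of 0.09. Cdk1 at 0.22 and Ccnb1 at 0.20 had an unadjusted limma p under 0.05, where 2.2% of all genes were higher. The MAM sums were 50.2 to 61.5 TPM. For Low Protein 14 of 15 were above Saline, where 45.2% of all genes were, with a median of 0.13. Mcm3 at 0.24 and Mcm4 at 0.19 had an unadjusted limma p under 0.05, where 2.7% of all genes were higher. The Low Protein sums were 43.9 to 61.9 TPM. The part of these markers in the repair differences was not tested in any group.

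Between MAM and Poly I:C, 5 of the 49 repair genes were higher in MAM and 9 lower at an unadjusted p under 0.05, together 28.6% against 18.6% of all genes, of which 3.91% were higher and 14.7% lower. The higher ones included Mgmt, Alkbh2, Mpg and the glycosylase Smug1 at 0.21. The lower ones included Parp1, Parg at −0.33, Apex2 at −0.35 and the mismatch repair gene Pms1 at −0.32. None passed the adjusted threshold. Without MAM litter 1, 7 of the 49 were under an unadjusted limma p of 0.05, where 11.3% of all genes were.

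A further list of 6 genes held the single listed gene past the adjusted threshold. They were Ddb2, Xpc, Polk, Polh, Rrm2b and Gadd45a, listed as induced by p53, most of them for copying past lesions or nucleotide excision. For MAM against Poly I:C, 5 of the 6 were not under an unadjusted limma p of 0.05. Polk, a polymerase that copies past damaged bases, had lowest, median and highest values of 0.0283, 0.0342 and 0.0432 TPM in MAM, 0.0383, 0.0499 and 0.0614 TPM in Poly I:C, 0.0384, 0.0404 and 0.0461 TPM in Saline and 0.0362, 0.0427 and 0.0513 TPM in Low Protein. It fell by 0.53 on the log2 scale in MAM relative to Poly I:C (SE 0.123, limma adjusted p = 0.0372), where 1.19% of all genes passed that threshold. Polk had adjusted limma p-values of 0.359 without MAM litter 1 and 0.168 without MAM litter 2, and it passed the adjusted threshold in 28 of 45 alternatives. Against Saline MAM was at −0.26 and Poly I:C at 0.27, with adjusted limma p-values of 0.501 and 0.504.

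**Figure D5:**
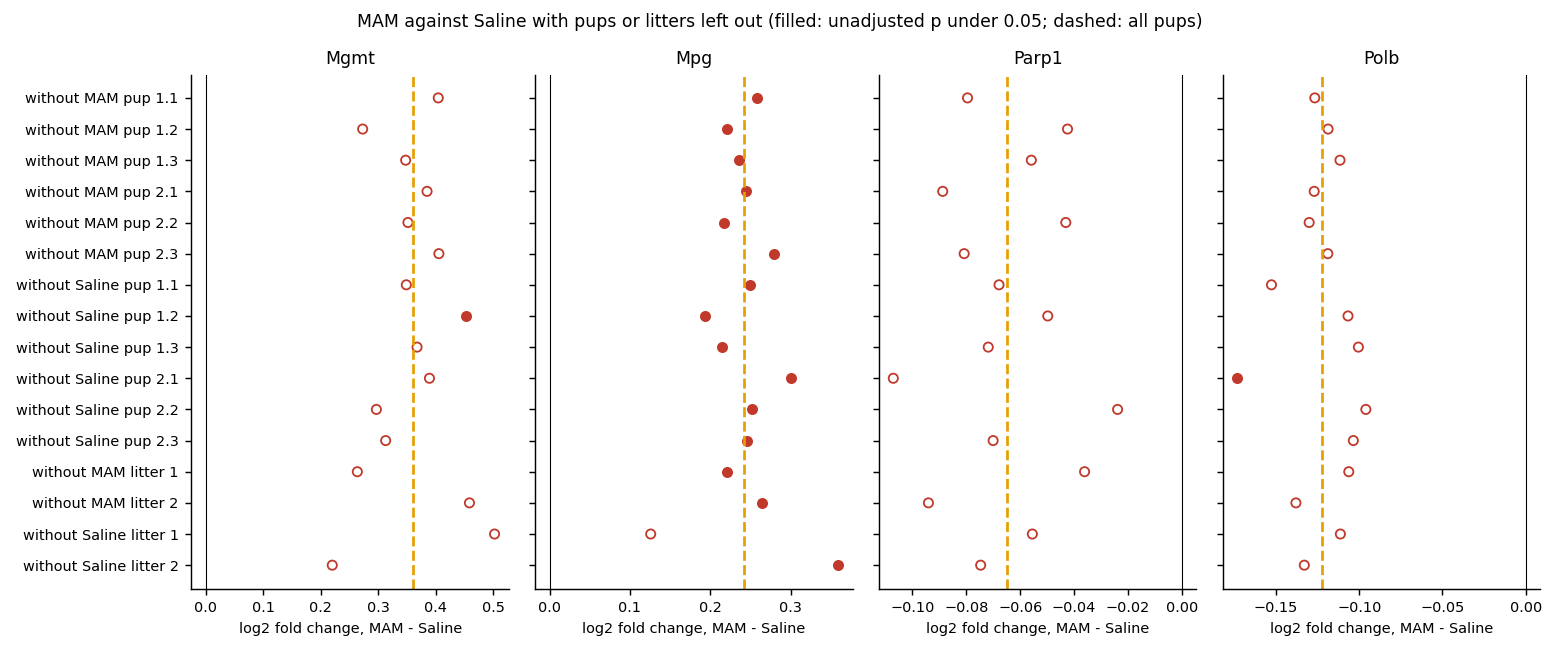
Log2 fold change of Mgmt, Mpg, Parp1 and Polb for MAM against Saline (horizontal axes, one scale per gene) when each MAM or Saline pup or litter is left out in turn (vertical axis). Filled points have an unadjusted limma p under 0.05 and the dashed line is the value with all pups. Mpg ran from 0.13 without Saline litter 1 to 0.36 without Saline litter 2, and Mgmt from 0.22 to 0.50.

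The size of these differences depended in part on the scale of the table. The median log2 difference of all genes between MAM and Saline was −0.07, and by genomic span it was −0.0092 in the shortest of 4 equal bins and −0.13 in the longest. Scaling the pups by the median of ratios moved Mgmt to 0.43 and Mpg to 0.31 for MAM against Saline, with adjusted limma p-values of 0.606 and 0.381, and moved Polb to −0.06. Under that scaling Pms2 changed sign, from −0.04 to 0.03.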

How the data were processed

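The authors trimmed the paired reads, aligned them to the rat genome rn6 with STAR 2.4.1d, counted them per gene in Partek Flow and deposited the resulting TPM values, to which an offset of 0.0001 was added. Those values summed to 70350 in every pup, and 20.9% of them were at the offset. Groups were taken from the sample labels. Here, log2 of the values was fitted with limma 3.58.1 in R 4.3.3 (group as the only factor, all 24 pups, empirical Bayes with a mean-variance trend) for the 12654 of 17420 genes above the offset in all 24 pups, with no further pseudocount, with Benjamini-Hochberg adjustment over all of them. The study's limit, a mean above 1 in every group, served as an alternative. For each member the difference of mean log2 values was also tested by exact two-sided permutation (924 splits). Genomic spans for the read estimates were matched by symbol, synonym or gene ID for 98.9% of genes. Litters were read from the first part of the pup number. The members and all lists were chosen with earlier results of these data known. Named genes are the members, the 3 genes of each repair list with the lowest p against Saline, listed genes past the adjusted threshold, and the 2 genes most like each member. Genes named for MAM against Poly I:C beyond these were chosen after their values were seen. Values of marker lists are given beside some results.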

Additional observations from a re-analysis of the deposited data

How the results depend on the processing

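No member passed the adjusted threshold in any of 46 alternative settings, and 1553 of 1590 values of single members kept their direction. Many of these values could not change direction, so the count is no measure of stability. Leaving out pups of a group outside a comparison leaves its difference as it was. So do settings that change only the filter or the model of the spread. The study's limit of a mean above 1 kept Apex1, Xrcc1 and Parp1, so Mgmt, Mpg, Polb and Pms2 were not tested under it. Of the members kept, 0 had an unadjusted limma p under 0.05 for MAM against Saline and 1 for MAM against Poly I:C. The shares of all genes kept were 11.3% and 23.2%. The repair lists were also shortened by this limit. Among them 1 gene was called for MAM against Saline, 4 for Poly I:C against Saline, 6 for MAM against Poly I:C and 1 for MAM against Low Protein. Of all genes kept, 9.97% were called for Poly I:C against Saline and 11.0% for MAM against Low Protein. Median of ratios scaling raised the members called from 0 to 1 for Poly I:C against Saline and from 0 to 2 for MAM against Low Protein. It raised the repair genes called from 2 to 4 for Low Protein against Saline and from 4 to 7 for MAM against Low Protein. Of all genes it called 11.1% for Poly I:C against Saline, 7.76% for Low Protein against Saline and 7.30% for MAM against Low Protein. The same scaling turned Pms2 for MAM against Saline to 0.0293, Apex1 for MAM against Poly I:C to 0.0254 and Apex1 for MAM against Low Protein to 0.0056. Upper quartile scaling turned the same values to 0.0051, 0.0251 and 0.0047, and gave 2 members for MAM against Low Protein. It gave 8 and 7 repair genes for MAM against Saline and MAM against Low Protein, where it called 8.35% and 7.63% of all genes. These scalings moved the share of higher calls among all genes from 22.2% to 65.5% and 47.4% for MAM against Saline and from 21.0% to 50% and 50.9% for MAM against Poly I:C. With only the groups compared in the fit, 1 member was called for MAM against Low Protein, where 9.81% of all genes were. Removing the trend with genomic span was an alternative chosen after seeing the data. It gave 2, 1 and 2 members for MAM against Saline, Poly I:C against Saline and MAM against Low Protein. Of all genes 6.82%, 11.7% and 7.63% were called there. It gave 5 repair genes for Low Protein against Saline, where 7.86% of all genes were called. It turned Parp1 to 0.0089 and Pms2 to 0.0271 for MAM against Saline.

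Fits on litter means, 2 per group, called 5.44% of all genes for MAM, 6.40% for Poly I:C and 5.11% for Low Protein against Saline. They called 12.4% for MAM against Poly I:C, 5.70% for MAM against Low Protein and 6.10% among the 4 groups. Among the members, 1 was called for MAM against Saline, 1 for MAM against Poly I:C and 0 in each other comparison. Among the repair genes, 3, 1 and 0 were called for MAM, Poly I:C and Low Protein against Saline. For MAM against Poly I:C there were 5, and for MAM against Low Protein 2.

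Leaving out single pups or litters gave 3.48% to 14.1% of all genes called for MAM against Saline, 4.62% to 18.7% for Poly I:C against Saline, 4.28% to 9.25% for Low Protein against Saline, 11.3% to 21.0% for MAM against Poly I:C, 4.71% to 15.1% for MAM against Low Protein and 7.32% to 16.4% among the 4 groups. Members called ran from 0 to 2, 0 to 2, 0 to 1, 0 to 4 and 0 to 3 in the 5 comparisons, and repair genes from 0 to 7, 2 to 14, 1 to 10, 7 to 20 and 2 to 13. The cause of these shifts was not tested. Single differences that changed sign when a pup or litter was left out ran as follows. In Poly I:C against Saline they ran from −0.0046 to 0.19 for Apex1, −0.44 to 0.19 for Mgmt, −0.0678 to 0.17 for Mpg, −0.0241 to 0.0533 for Polb and −0.0602 to 0.14 for Pms2. In MAM against Poly I:C they ran from −0.14 to 0.0576 for Apex1 and −0.17 to 0.0247 for Pms2. In MAM against Low Protein they ran from −0.0852 to 0.0168 for Apex1 and −0.25 to 0.0929 for Pms2. In MAM against Saline they ran from −0.0738 to 0.0030 for Pms2. In Low Protein against Saline they ran from −0.0546 to 0.23 for Mgmt, −0.0293 to 0.20 for Mpg, −0.12 to 0.13 for Polb and −0.13 to 0.22 for Pms2.

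The main fit did not pair pups by the pup numbers that the groups share. Deviations from the group mean correlated at −0.159 to 0.327 between pups with the same number (median 0.036, 16 of 36 pairs above 0.1). Between pups with other numbers they correlated at −0.397 to 0.391 (median −0.0024, 34 of 180 pairs above 0.1). Pairs with the same number were above 0.1 more often, and whether they shared a batch was not tested. With the pup number as a replicate block, 12.6% of all genes were called for MAM against Saline with 1 member, against 9.89% in the main fit. For MAM against Poly I:C it was 21.4% with 4 members, Xrcc1 being added, against 18.6% in the main fit. With pseudocount 1 the Mgmt difference was 0.0019, since its values lie far under 1, and its median of 51.6 estimated reads limits how small a difference could be seen. The DESeq2 alternative was for counts and was not run on TPM. No group of any member held a single pup far from the others by Dixon's test (28 groups).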
